A study of Mus musculus with 23 samples.

Results

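The first 2 h of a meal after a fast were examined in the proximal small intestine of mice that received no drug. Of the 23 RNA-seq libraries in the series, 4 make up this comparison, chosen by their labelled genotype, feeding and drug. The refed group held 1 Ddit4-/- library and 1 wild-type library from mice labelled male, fasted for 24 h, then refed for 2 h. The fasted group held 1 Ddit4-/- library and 1 wild-type library from mice labelled male, fasted for 24 h and sampled at 0 h. Ddit4 encodes a stress-induced inhibitor of the growth kinase mTORC1, and the labels name no Cre line or tissue-specific deletion for the knockout. The other libraries cover ad libitum feeding, 6 h of refeeding, and 20 mg/kg doxorubicin, a DNA-damaging chemotherapy drug given by intraperitoneal injection. The labels give no mouse age, strain, diet or time of day, and do not say whether untreated mice received a vehicle injection. Each genotype and condition has a single library, so the comparison rests on 2 pairs. P-values here reflect how unevenly the knockout and wild-type libraries differ across conditions, once their average difference is removed. That spread may be technical, and it also holds differences between mice and any genotype effect that varies by condition.

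Feeding after a fast is a rapid switch in fuel and signals. Insulin, nutrients and gut hormones lower the activity of FOXO transcription factors and of the fasting programs for glucose production and fat burning, and they raise the activity of mTORC1 and of the lipid-synthesis factors of the SREBP family. The small intestine meets the meal first. Its epithelial cells absorb sugars, peptides and fat, make digestive enzymes and lipoproteins in the endoplasmic reticulum (ER), and renew from dividing crypt cells. Protein folding in the cytosol depends on heat shock chaperones, whose genes are driven by heat shock factor, whereas folding in the ER depends on a separate set of chaperones driven by the unfolded protein response.

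The deposited values are read counts divided by a size factor for each library, here called normalized reads. The 23 libraries held 11418115 to 23428519 reads. Of the 4 compared here, the refed knockout library held 20539302 reads and the refed wild-type library 17028381 reads, against 16990008 reads in the fasted knockout library and 21483310 reads in the fasted wild-type library. Ddit4 itself had 0 reads in the refed knockout library and 329 in the refed wild-type library, against 2 in the fasted knockout library and 380 in the fasted wild-type library, so the genotype labels hold for all 4. The tissue label also holds, since all 16 enterocyte markers were detected in each of the 4 libraries. Some values went against the labels. All mice were labelled male, yet 4 Y-linked genes together had 0 reads in the refed knockout library and 1462 in the refed wild-type library, against 5 in the fasted knockout library and 1645 in the fasted wild-type library. In the other libraries these genes had 1088 to 2030 reads, except the ad libitum knockout library, which had 0. The fasted knockout library also carried pancreatic transcripts, with a median acinar marker of 4355 normalized reads. That median was 7.20 and 0 in the refed knockout and wild-type libraries and 10.7 in the fasted wild-type library. Within each pair the Y-linked state was the same, whereas the pancreatic transcripts differed inside the knockout pair.

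Across the 11939 genes whose mean reached 10 normalized reads, 30 differed between refed and fasted intestine at an adjusted p under 0.05 (limma on log2 values, 0.251% of genes tested). Of these, 17 rose with refeeding (0.142%) and 13 fell (0.109%), and all 30 moved the same way in both genotype pairs. At an unadjusted p under 0.05, 1035 genes differed (8.67%). Fold differences of the risen genes ran between 1.89 and 37.8, and the fallen genes were between 1.79 and 11.5 times higher in fasted tissue. The risen genes were led by cytosolic chaperones, together with the choline kinase gene Chka and the clock repressor gene Bhlhe40. The fallen genes were led by the fasting gene Pdk4 and included Cirbp, Srsf5, Erbb3 and Usp28. Of the 30 genes, edgeR's quasi-likelihood test on recovered reads also called 18 and DESeq2 called all 30. Hsph1 and Hsp90aa1 passed in each of 38 alternative analyses. Of the 29 called genes named here, 17 lost the call in 10 or fewer of the 38 and 12 lost it in 15 to 22. Those 12 were Hspa8, Clec2e, Btnl4, Pim1, Srf, Pdk4, Map3k21, Prpf38b, Ddx17, Pde9a, Srsf5 and Tent5a. Leaving out 1 of the 4 compared libraries in turn left 4 calls without the fasted wild-type library, 6 without the refed wild-type library, 3 without the fasted knockout library and 6 without the refed knockout library.

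**Figure D1:**
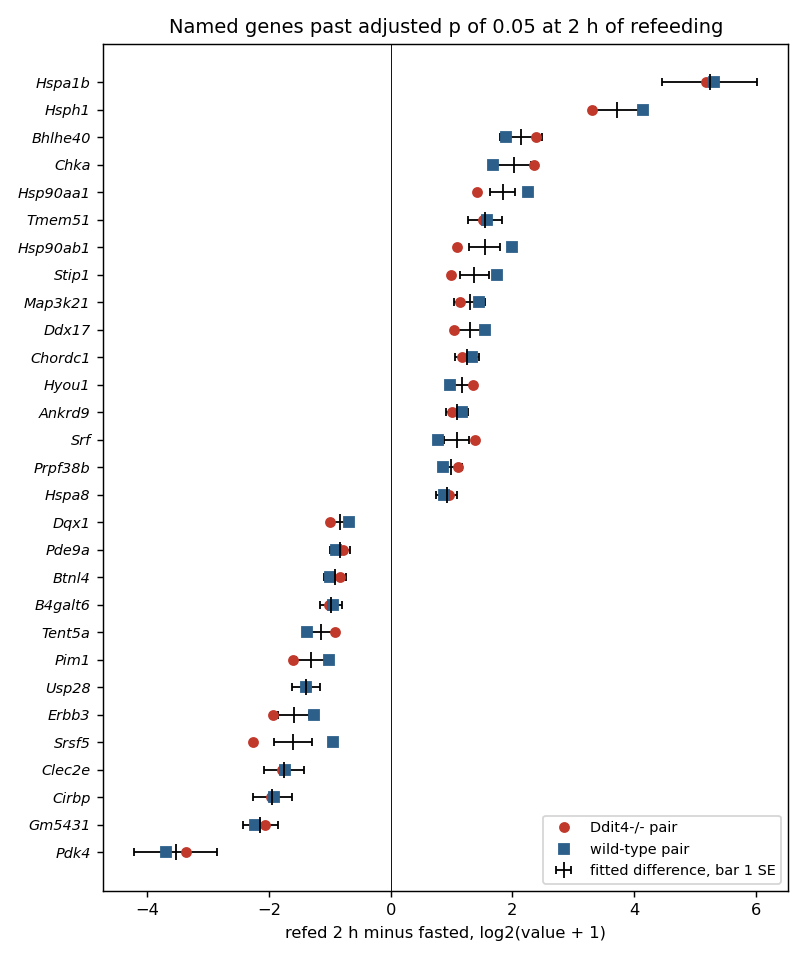
Fitted log2 difference, refed 2 h minus fasted, for the named genes past the adjusted threshold (horizontal axis; bars are SE), with the knockout pair as circles and the wild-type pair as squares. Both pairs of each gene lie on the same side of 0, and Hspa1b and Hsph1 at one end and Pdk4 at the other lie farthest out.

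A second count used no test and asked for at least a 2-fold difference in the same direction in both pairs. It held 192 genes that were higher after refeeding (1.61% of genes tested) and 151 that were lower (1.26%). Another 164 genes differed at least 2-fold in opposite directions in the pairs (1.37%). Without a fold minimum, 3671 genes were higher in both pairs (30.7%), 3377 lower in both (28.3%) and 4891 moved in opposite directions (41%). Both refed libraries lay above both fasted libraries in 2761 genes (23.1%) and below both in 2425 (20.3%), so groups that do not overlap are common with 2 libraries each. Of the 343 genes that differed 2-fold in the same direction, 19 also passed the adjusted threshold. The 343 genes included 11 of 16 tested pancreatic acinar markers on the lower side and 8 of 10 tested adipocyte markers on the higher side. None of these markers passed the adjusted threshold. In the wild-type pair these acinar markers had low values, such as Prss2 with 0 refed against 10.7 fasted and Cela2a with 0.925 against 18.3.

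**Figure D2:**
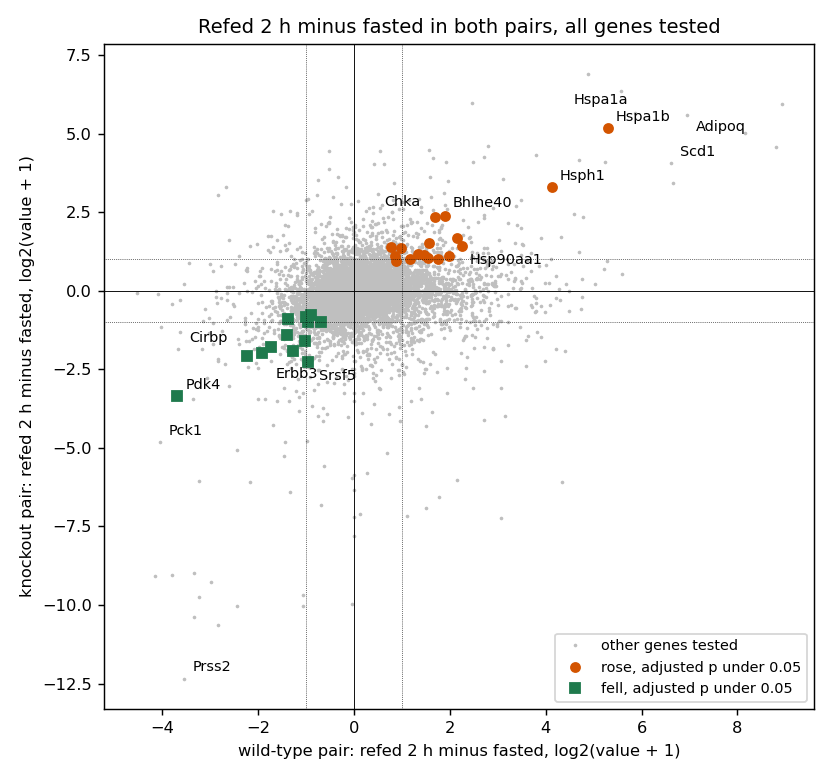
Log2 difference, refed 2 h minus fasted, of every tested gene in the knockout pair and in the wild-type pair, with genes past the adjusted threshold marked and some named. The called genes lie in the 2 quadrants where both pairs agree in sign, inside a wide cloud in which 41% of genes have opposite signs.

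Cytosolic chaperone genes formed the main group that rose. Of 27 tested heat shock chaperone genes (28 listed), 7 rose and none fell, against 0.142% of all tested genes that rose. The list, like the others here, was chosen with earlier results of these data known, so these counts are a description. In this list 23 genes were higher in both pairs and 1 was lower in both, against 30.7% and 28.3% of all genes, and the median log2 difference was 0.88, against 0.03 over all genes. By pair, the list's median was 0.64 in the knockout pair and 1.03 in the wild-type pair. The summed level of the list was 65614 and 86401 normalized reads in the refed knockout and wild-type libraries, against 33630 and 31860 in the fasted knockout and wild-type libraries. The other 19 libraries lay between 21496 and 42325, below both refed libraries.

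Hspa1b encodes the stress-inducible cytosolic Hsp70, which binds unfolded segments of other proteins. It had 1659 and 4236 normalized reads in the knockout and wild-type libraries refed for 2 h, against 45.0 and 106 in the fasted knockout and wild-type libraries (log2 difference 5.24 ± 0.78 (SE), adjusted p = 0.0095). Both refed levels were far above both fasted ones, and the fitted difference was 37.8-fold. The gene lies at chromosome 17, 34956436 to 34959238 (GRCm38). Its close neighbour and near-identical copy Hspa1a had 428 and 1438 in the refed knockout and wild-type libraries, against 7.5 and 23.6 in their fasted counterparts. That difference did not pass the threshold (log2 difference 5.76 ± 1.48 (SE), adjusted p = 0.15), and reads shared between the copies make the split between them uncertain.

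Hsph1, at chromosome 5, 149614287 to 149636376, encodes the Hsp110 exchange factor that recharges Hsp70 and helps to dissolve aggregates. It had 2966 and 5269 normalized reads in the knockout and wild-type libraries refed for 2 h, against 299 and 298 in the fasted knockout and wild-type libraries (log2 difference 3.72 ± 0.37 (SE), adjusted p = 0.00028). The fasted levels nearly coincided, both refed levels were far higher, and the fitted difference was 13.2-fold. Hsp90aa1, the inducible cytosolic Hsp90, had 3810.2 and 5774 in the refed knockout and wild-type libraries, against 1423 and 1202 in their fasted counterparts (log2 difference 1.84 ± 0.21 (SE), adjusted p = 0.0008, 3.58-fold). Hsp90ab1, its constitutive partner, had 14504 and 19876 in the refed knockout and wild-type libraries, against 6788 and 4999 in their fasted counterparts (log2 difference 1.54 ± 0.25 (SE), adjusted p = 0.017). For both Hsp90 genes the wild-type library had the higher refed level.

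The other risen members were partners of these chaperones. Stip1, the adaptor that passes clients from Hsp70 to Hsp90, had 1411 and 2233 in the refed knockout and wild-type libraries, against 707 and 662 in their fasted counterparts (log2 difference 1.37 ± 0.24 (SE), adjusted p = 0.026). Chordc1, a Hsp90-binding cochaperone, had 1195 and 1454 in the refed knockout and wild-type libraries, against 532 and 577 in their fasted counterparts (log2 difference 1.25 ± 0.20 (SE), adjusted p = 0.016). Hspa8 encodes the constitutive Hsc70 and is named here after its values were seen. Its levels were 18277 and 19851 in the refed knockout and wild-type libraries, against 9387 and 10773 in their fasted counterparts (log2 difference 0.92 ± 0.17 (SE), adjusted p = 0.036), and its exonic bases overlap small nucleolar RNA genes. In all 3 genes both refed libraries lay above both fasted ones. Members that missed the threshold included Serpinh1, the collagen chaperone of the ER that is also a heat shock factor target, with 184 and 97.1 in the refed knockout and wild-type libraries, against 27.2 and 25.1 in their fasted counterparts (log2 difference 2.31 ± 0.62 (SE), adjusted p = 0.17). Bag3, a cochaperone that directs Hsp70 clients to autophagy, had 1408 and 1684 in the refed knockout and wild-type libraries, against 577 and 656 in their fasted counterparts (log2 difference 1.32 ± 0.29 (SE), adjusted p = 0.089). Hspd1, the mitochondrial chaperonin, had 3165 and 4842 in the refed knockout and wild-type libraries, against 2424 and 1369.8 in their fasted counterparts (log2 difference 1.10 ± 0.29 (SE), adjusted p = 0.17). Each of these 3 was higher in both refed libraries than in both fasted ones, as were 23.1% of all tested genes. Fibroblast and stroma markers, of which Serpinh1 is not one, also had higher sums, with 3010 and 1679 in the refed knockout and wild-type libraries, against 1228 and 1197 in the fasted knockout and wild-type libraries, and their part in the Serpinh1 value was not tested. Bag3 and Hspd1 are likewise named after their values were seen.

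**Figure D3:**
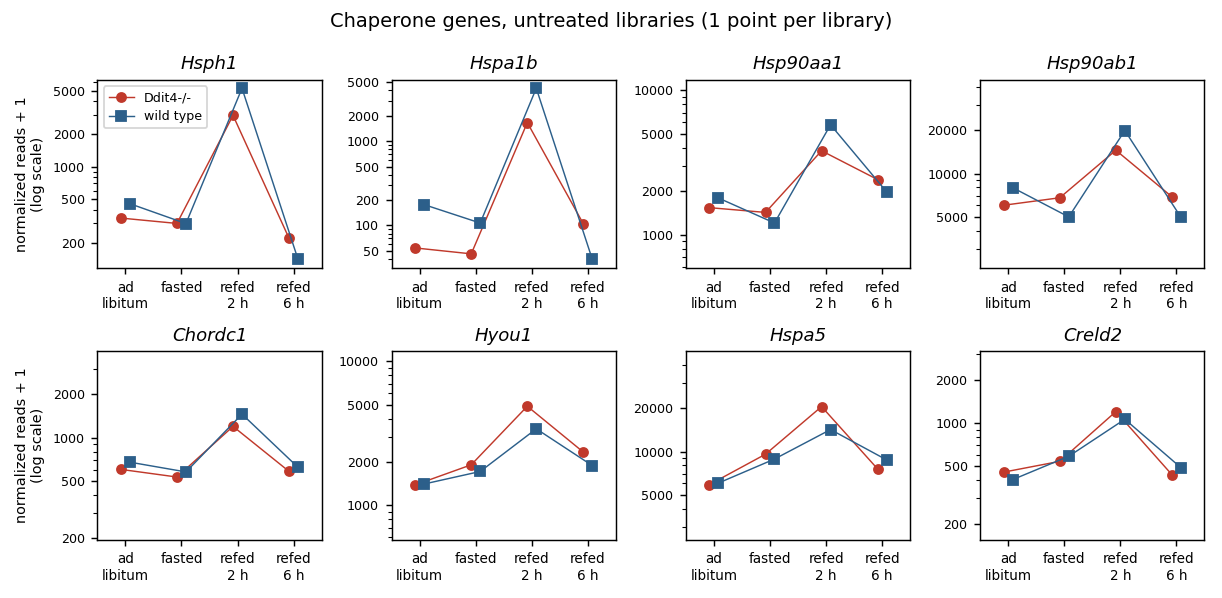
Normalized reads, plus 1, of chaperone genes in untreated libraries by feeding state (ad libitum, fasted, refed 2 h, refed 6 h), knockout as circles and wild type as squares, on log axes. Lines join libraries of different mice; each gene shown has its highest level at 2 h of refeeding in both genotypes.

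Because these genes share a known regulator, their promoters were read for its binding letters. RefSeq promoter windows (GRCm38.p6) run from 250 bases before the start site to 50 after it. Heat shock factor binds repeated, inverted GAA units, so GAA units in alternating orientation with 2 bases between them were searched on both strands, as 2 units (GAANNTTC) and as 3 units, a motif that contains the 2-unit one. Of the 17 risen genes 11 had a window, and 23 of the 28 listed heat shock genes did. The 3-unit motif lay in the windows of 2 of the 11 risen genes, Chordc1 and Hsph1, and of 4 of the 23 listed heat shock genes (17.4%), against 0.662% of 27025 genes with a window. The 2-unit motif lay in 4 of the 11 risen genes, namely Chordc1, Ddx17, Hspa1b and Hsph1, and in 11 of the 23 listed heat shock genes (47.8%), against 9.04% of those genes. The other called heat shock genes, Hsp90aa1, Hsp90ab1, Stip1 and Hspa8, had no match of either motif. Which of them lacked a window is not given here. None of the 9 fallen genes with a window held either motif. The ER stress response element, through which the unfolded protein response acts, was searched as CCAAT and CCACG with 9 bases between them. It lay in 9 of 20 ER list genes with a window (45%) and in none of the 11 risen genes, against 0.137% of all genes with a window. These matches are letters in a window, and neither binding nor a part in the rises was tested. At these shares over all genes, the 9 fallen and 11 risen genes are too few for an absent motif to be informative. The windows of 3 risen heat shock genes and 2 ER chaperone genes, picked among genes with a match, are shown to set both kinds of element side by side. They run from 250 bases before the start site to 30 after it, 5′ to 3′ on the gene's strand, with the matched motif in capitals.
Hsph1, chr5:149636286-149636565, minus strand: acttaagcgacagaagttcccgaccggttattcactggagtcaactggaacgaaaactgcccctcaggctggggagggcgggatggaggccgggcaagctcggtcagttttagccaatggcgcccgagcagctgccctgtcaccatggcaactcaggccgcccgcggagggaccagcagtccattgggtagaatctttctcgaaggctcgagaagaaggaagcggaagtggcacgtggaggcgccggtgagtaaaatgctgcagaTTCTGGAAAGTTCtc
Chordc1, chr9:18292017-18292296, plus strand: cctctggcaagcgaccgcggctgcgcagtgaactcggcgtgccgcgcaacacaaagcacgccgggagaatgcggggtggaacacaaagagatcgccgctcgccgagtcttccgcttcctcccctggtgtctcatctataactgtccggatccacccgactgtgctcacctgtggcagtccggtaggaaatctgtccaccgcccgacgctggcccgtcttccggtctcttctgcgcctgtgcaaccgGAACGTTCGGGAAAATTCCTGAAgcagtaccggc
Hspa1b, chr17:34959209-34959488, minus strand: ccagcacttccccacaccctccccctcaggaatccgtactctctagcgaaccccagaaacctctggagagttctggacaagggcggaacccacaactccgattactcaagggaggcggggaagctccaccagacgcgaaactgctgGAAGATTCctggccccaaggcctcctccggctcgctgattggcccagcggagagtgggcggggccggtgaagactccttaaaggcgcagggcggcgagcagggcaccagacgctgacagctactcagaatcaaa
Hspa5, chr2:34771840-34772119, plus strand: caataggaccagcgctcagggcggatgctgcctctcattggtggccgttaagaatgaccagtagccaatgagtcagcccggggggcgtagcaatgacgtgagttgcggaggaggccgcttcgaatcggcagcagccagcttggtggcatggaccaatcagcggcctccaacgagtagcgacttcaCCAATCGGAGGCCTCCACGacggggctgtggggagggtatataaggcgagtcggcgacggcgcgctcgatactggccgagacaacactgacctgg
Hsp90b1, chr10:86705415-86705694, minus strand: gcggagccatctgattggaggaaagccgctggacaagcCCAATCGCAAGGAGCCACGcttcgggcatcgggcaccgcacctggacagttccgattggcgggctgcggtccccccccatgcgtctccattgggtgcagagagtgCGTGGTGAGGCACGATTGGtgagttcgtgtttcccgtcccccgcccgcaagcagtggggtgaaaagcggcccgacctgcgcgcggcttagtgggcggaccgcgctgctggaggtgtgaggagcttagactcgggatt
Counted from the start site to the first base of the match, the Hsph1 motif begins at 15, the overlapping Chordc1 motifs begin between -4 and 6, and the Hspa1b motif begins at -104. The ER element begins at -65 in Hspa5, and at -212 and -107 in Hsp90b1.

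ER chaperone genes yielded a single call, Hyou1. Of 23 tested genes of the ER chaperone and unfolded protein response list, 1 rose and none fell, against 0.142% and 0.109% of all tested genes. In this list 16 were higher in both pairs and none was lower in both, against 30.7% and 28.3% of all tested genes. The median log2 difference was 0.41, with 0.53 in the knockout pair and 0.30 in the wild-type pair. Hyou1, an ER relative of Hsp110 that acts as exchange factor for BiP, had 4870.2 and 3396 normalized reads in the knockout and wild-type libraries refed for 2 h, against 1910.5 and 1717 in the fasted knockout and wild-type libraries (log2 difference 1.17 ± 0.16 (SE), adjusted p = 0.0065). Its refed levels did not overlap the fasted ones, and the fitted difference was 2.24-fold. Creld2, an ER protein induced by ER stress, had 1202 and 1062 in the refed knockout and wild-type libraries, against 542 and 587 in their fasted counterparts (log2 difference 1.0 ± 0.23 (SE), adjusted p = 0.094). Hspa5, which encodes BiP, the main ER Hsp70, had 20497 and 14203 in the refed knockout and wild-type libraries, against 9579 and 8865 in their fasted counterparts (log2 difference 0.89 ± 0.21 (SE), adjusted p = 0.11). Hsp90b1, the ER form of Hsp90, had 8069 and 7171 in the refed knockout and wild-type libraries, against 5643 and 4845 in their fasted counterparts (log2 difference 0.54 ± 0.17 (SE), adjusted p = 0.27). Calr, a calcium-binding chaperone of glycoproteins, had 14826 and 10034 in the refed knockout and wild-type libraries, against 8198 and 5821 in their fasted counterparts (log2 difference 0.82 ± 0.19 (SE), adjusted p = 0.094), and Pdia4, a disulfide isomerase, had 2106 and 1747 in the refed knockout and wild-type libraries, against 1135 and 889 in their fasted counterparts (log2 difference 0.93 ± 0.26 (SE), adjusted p = 0.2). Of these genes only Hyou1 passed the threshold; all were higher in both refed libraries than in both fasted ones, as were 23.1% of all tested genes. Goblet cell markers, from cells with a large ER, summed to 141741 and 115886 in the refed knockout and wild-type libraries, against 111654 and 55525 in the fasted knockout and wild-type libraries. Their part in the ER chaperone values was not tested. Hspa5 and Hsp90b1 are named after their values were seen. Among 15 tested ATF4 targets, the amino acid and stress response genes, none passed the threshold, 8 were higher in both pairs and 1 was lower in both. Asns, which makes asparagine, had 444 and 459.6 in the refed knockout and wild-type libraries, against 263 and 249.6 in their fasted counterparts (log2 difference 0.82 ± 0.51 (SE), adjusted p = 0.73).

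The fasting gene Pdk4 fell after the meal, the largest fitted fall among the called genes. Pdk4 encodes the kinase that shuts off pyruvate oxidation and so keeps glucose from being burned during a fast. It had 584 and 531 normalized reads in the knockout and wild-type libraries refed for 2 h, against 6014 and 6873 in the fasted knockout and wild-type libraries (log2 difference -3.53 ± 0.68 (SE), adjusted p = 0.043). The groups did not overlap, and the fasted level was 11.5 times the refed one in the fit. This call was lost in 19 of the 38 alternatives, while the fitted log2 difference lay between -3.93 and -3.12 in all of them. Pck1, the gluconeogenic enzyme that converts oxaloacetate to phosphoenolpyruvate, had the larger difference, with 1168 and 1341 in the refed knockout and wild-type libraries, against 32972 and 22108 in their fasted counterparts. Fasted levels were 21.6 times the refed ones, but the spread was wide (log2 difference -4.43 ± 1.03 (SE), adjusted p = 0.11). Of 27 tested PPAR-alpha and fat oxidation genes, Pdk4 alone fell and none rose. In this list 5 genes were higher and 8 lower in both pairs, against 30.7% and 28.3% of all tested genes. The median log2 difference was -0.01. Angptl4, an inhibitor of lipoprotein lipase, had 1385 and 1002 in the refed knockout and wild-type libraries, against 4742 and 3968 in their fasted counterparts (log2 difference -1.88 ± 1.01 (SE), adjusted p = 0.67), whereas Plin2, a lipid droplet coat protein of the same list, had 3428 and 3366 in the refed knockout and wild-type libraries, against 1976 and 2042 in their fasted counterparts (log2 difference 0.76 ± 0.24 (SE), adjusted p = 0.27). Of 20 tested gluconeogenesis and sugar handling genes none passed, and 11 were higher and 2 lower in both pairs.

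Among genes tied to insulin, FOXO and glucocorticoids, more were lower than higher in both pairs, but Pdk4 was the only call. Over all tested genes, 30.7% were higher and 28.3% lower in both pairs, and 0.109% fell past the threshold. Of 18 tested FOXO and insulin-responsive genes, Pdk4 fell, none rose, 3 were higher and 11 lower in both pairs, and the median log2 difference was -0.38. Irs2, an insulin receptor substrate that FOXO induces in fasting, had 214 and 375 in the refed knockout and wild-type libraries, against 802 and 983 in their fasted counterparts (log2 difference -1.65 ± 0.50 (SE), adjusted p = 0.26). Klf15, a fasting-induced factor for amino acid and glucose metabolism, had 41.6 and 135 in the refed knockout and wild-type libraries, against 386 and 311 in their fasted counterparts (log2 difference -2.19 ± 0.64 (SE), adjusted p = 0.24). Sesn1, a stress protein that restrains mTORC1, had 978 and 940.4 in the refed knockout and wild-type libraries, against 3676 and 2476 in their fasted counterparts (log2 difference -1.65 ± 0.56 (SE), adjusted p = 0.34). These 3 genes were lower in both refed libraries and none passed the threshold. Among 16 tested mTORC1 brake and 4E-BP genes none passed, and 9 were lower and 3 higher in both pairs. Eif4ebp3, a translation repressor that mTORC1 inactivates, had 122 and 104 in the refed knockout and wild-type libraries, against 253 and 196 in their fasted counterparts. Ddit4, the deleted gene and itself such a brake, had 304 normalized reads in the refed wild-type library against 289 in the fasted one. Of 16 tested glucocorticoid-responsive genes 1 fell (Pdk4), 1 was higher and 9 were lower in both pairs, and the median log2 difference was -0.79. Sgk1, a kinase that raises epithelial sodium uptake, had 5153 and 3645 in the refed knockout and wild-type libraries, against 22612 and 16978 in their fasted counterparts (log2 difference -2.18 ± 0.49 (SE), adjusted p = 0.094). Per1, a clock gene that glucocorticoids also induce, had 110.3 and 177 in the refed knockout and wild-type libraries, against 602 and 364 in their fasted counterparts (log2 difference -1.74 ± 0.38 (SE), adjusted p = 0.081). Foxq1, a forkhead factor outside these lists, had 99.1 and 130.4 in the refed knockout and wild-type libraries, against 1087 and 1345 in their fasted counterparts (log2 difference -3.40 ± 0.71 (SE), adjusted p = 0.068). In Sgk1, Per1 and Foxq1 both refed levels were below both fasted ones, as in 20.3% of all tested genes.

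**Figure D4:**
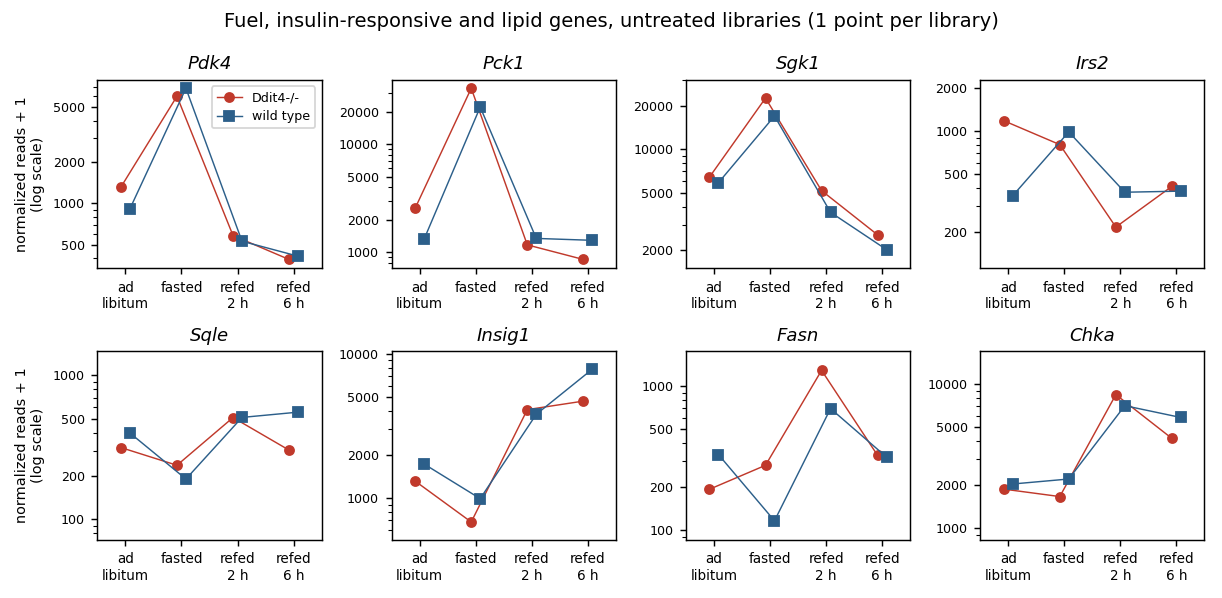
Normalized reads, plus 1, of fuel, insulin-responsive and lipid genes in untreated libraries by feeding state (ad libitum, fasted, refed 2 h, refed 6 h), knockout as circles and wild type as squares, on log axes; lines join libraries of different mice. Pdk4, Pck1 and Sgk1 are highest in the fasted libraries, whereas Sqle, Insig1 and Chka are higher after 2 h of refeeding than after fasting in both genotypes.

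Of 28 tested cholesterol synthesis and sterol transport genes, 17 were higher and 5 lower in both pairs, against 30.7% and 28.3% of all tested genes. The median log2 difference was 0.38. Insig1, which holds SREBP in the ER and is itself an SREBP target, had 4098 and 3803 in the refed knockout and wild-type libraries, against 679.6 and 988 in their fasted counterparts (log2 difference 2.27 ± 0.47 (SE), adjusted p = 0.063). Sqle, an enzyme of cholesterol synthesis, had 508 and 509 in the refed knockout and wild-type libraries, against 236 and 189 in their fasted counterparts (log2 difference 1.26 ± 0.38 (SE), adjusted p = 0.26). Abcg8 encodes one subunit of the exporter that returns plant sterols and cholesterol to the gut lumen, and it ran the other way, with 4269 and 4427 in the refed knockout and wild-type libraries, against 9821 and 10679 in their fasted counterparts (log2 difference -1.24 ± 0.31 (SE), adjusted p = 0.15). Insig1, Sqle and Abcg8 did not pass the threshold.

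None of 19 tested fatty acid synthesis and desaturation genes passed, yet 14 were higher and 3 lower in both pairs, with a median log2 difference of 0.65. The shares over all tested genes were 30.7% and 28.3%. In this list 4 genes were at least 2-fold higher in both pairs, against 1.61% of all tested genes. Fasn, fatty acid synthase, had 1281 and 695 in the refed knockout and wild-type libraries, against 280.3 and 115 in their fasted counterparts (log2 difference 2.39 ± 0.50 (SE), adjusted p = 0.068). Scd1, the desaturase that makes oleic acid, had 3192 and 914 in the refed knockout and wild-type libraries, against 189 and 8.37 in their fasted counterparts (log2 difference 5.34 ± 1.37 (SE), adjusted p = 0.15). Thrsp, a lipogenic nuclear protein, had 157 and 46.2 in the refed knockout and wild-type libraries, against 0.937 and 0 in their fasted counterparts. Fat tissue expresses all 3 of these genes strongly, and adipocyte markers were higher in the same libraries. The adipokine gene Adipoq had 230.2 and 123 in the refed knockout and wild-type libraries, against 3.75 and 0 in their fasted counterparts, and the fatty acid carrier gene Fabp4 had 829 and 448 in the refed knockout and wild-type libraries, against 33.7 and 0 in their fasted counterparts. Of 12 adipocyte markers none was at 0 in either refed library, against 4 at 0 in the fasted knockout library and 8 in the fasted wild-type library. Their summed level was 8933 and 5994 in the refed knockout and wild-type libraries, against 2678 and 3996 in the fasted knockout and wild-type libraries. Cidec and Pparg, which the fasted gut libraries also expressed, carried much of that sum. Without them, a choice made after the values were seen, the other 10 markers summed to 4095 and 1641 in the refed knockout and wild-type libraries, against 133 and 7.61 in the fasted knockout and wild-type libraries. Their part in the fatty acid synthesis values was not tested. Srebf1, the factor that drives lipogenesis with insulin, was not higher, with 2264 and 2008 in the refed knockout and wild-type libraries, against 3573 and 2770.0 in their fasted counterparts (log2 difference -0.56 ± 0.42 (SE), adjusted p = 0.8); it is named after its values were seen.

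Phospholipid synthesis was represented by one large rise. Chka encodes choline kinase, the first step from choline to phosphatidylcholine, the lipid that coats chylomicrons and membranes. It had 8434 and 7066 normalized reads in the knockout and wild-type libraries refed for 2 h, against 1654 and 2189 in the fasted knockout and wild-type libraries (log2 difference 2.02 ± 0.29 (SE), adjusted p = 0.007), a 4.06-fold difference with no overlap. Chka shares exonic bases with a gene on the other strand at chromosome 19, 3851773 to 3894369, and the libraries do not keep strand. Of 15 tested phospholipid genes it alone passed, 5 were higher and 3 lower in both pairs, against 30.7% and 28.3% of all tested genes. Etnk1, ethanolamine kinase, had 3340.1 and 3816 in the refed knockout and wild-type libraries, against 2078 and 2908 in their fasted counterparts (log2 difference 0.54 ± 0.25 (SE), adjusted p = 0.58). Among 21 tested fat absorption and lipoprotein genes none passed, and 5 were higher and 6 lower in both pairs.

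Of 17 tested clock genes, Bhlhe40 rose, 4 were higher and 5 lower in both pairs, against 30.7% and 28.3% of all tested genes. Bhlhe40 encodes a repressor that damps the clock and also answers feeding and hypoxia. It had 6696 and 6293 normalized reads in the knockout and wild-type libraries refed for 2 h, against 1278 and 1682 in the fasted knockout and wild-type libraries (log2 difference 2.15 ± 0.34 (SE), adjusted p = 0.016), a 4.43-fold difference with no overlap. It too shares exonic bases with a gene on the other strand. Per2, a core repressor of the clock, had 258 and 411 in the refed knockout and wild-type libraries, against 93.7 and 112 in their fasted counterparts (log2 difference 1.66 ± 0.34 (SE), adjusted p = 0.063), whereas Per1 was lower after refeeding, as given above. The labels give no hour of sampling, so the 2 h that separate the labelled times and the meal cannot be told apart.

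Cirbp and Srsf5 fell. Cirbp, the cold-inducible RNA-binding protein whose transcript falls when cells warm, had 102 and 165 normalized reads in the knockout and wild-type libraries refed for 2 h, against 399 and 626 in the fasted knockout and wild-type libraries (log2 difference -1.94 ± 0.32 (SE), adjusted p = 0.017). Srsf5, a splicing factor of the SR family, had 199.9 and 247 in the refed knockout and wild-type libraries, against 963 and 477 in their fasted counterparts (log2 difference -1.61 ± 0.31 (SE), adjusted p = 0.043). The Srsf5 call was lost in 22 of the 38 alternatives, with log2 differences between -2.33 and -0.88, and its fall was larger in the knockout pair. Cirbp and Srsf5 were the only 2 of 26 tested cold-inducible and splicing genes that passed. In this list 14 members were higher and 6 lower in both pairs, against 30.7% and 28.3% of all tested genes. Tra2a, another splicing activator, had 601 and 973 in the refed knockout and wild-type libraries, against 307 and 495 in their fasted counterparts (log2 difference 0.97 ± 0.26 (SE), adjusted p = 0.18), and Srsf7 had 931 and 1040.3 in the refed knockout and wild-type libraries, against 635 and 568 in their fasted counterparts (log2 difference 0.71 ± 0.22 (SE), adjusted p = 0.27). Called among the risen genes was Ddx17, an RNA helicase, with 2214 and 2387 in the refed knockout and wild-type libraries, against 1072 and 813 in their fasted counterparts (log2 difference 1.30 ± 0.26 (SE), adjusted p = 0.044), and Prpf38b, a splicing factor named after its values were seen, with 992 and 1124 in the refed knockout and wild-type libraries, against 458 and 620.2 in their fasted counterparts (log2 difference 0.98 ± 0.19 (SE), adjusted p = 0.043).

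Erbb3, Pim1 and Usp28 fell, and Srf and Map3k21 rose. Erbb3, a weakly active partner of the EGF receptor family that binds neuregulin, had 2611 and 4167 normalized reads in the knockout and wild-type libraries refed for 2 h, against 9954 and 9971 in the fasted knockout and wild-type libraries (log2 difference -1.59 ± 0.26 (SE), adjusted p = 0.017). Its fasted levels nearly coincided and both refed levels were lower. Pim1, a survival kinase, had 316 and 467 in the refed knockout and wild-type libraries, against 961 and 941 in their fasted counterparts (log2 difference -1.31 ± 0.25 (SE), adjusted p = 0.043). Usp28, a deubiquitinase that stabilizes Myc and p53 pathway proteins, had 87.1 and 86.0 in the refed knockout and wild-type libraries, against 231 and 228 in their fasted counterparts (log2 difference -1.40 ± 0.23 (SE), adjusted p = 0.017). Among the risen genes, Srf, the serum response factor that drives actin and immediate early genes, had 1269 and 965 in the refed knockout and wild-type libraries, against 485 and 562 in their fasted counterparts (log2 difference 1.08 ± 0.21 (SE), adjusted p = 0.043). Map3k21, a mixed-lineage kinase gene, had 609 and 743 in the refed knockout and wild-type libraries, against 276 and 270.2 in their fasted counterparts (log2 difference 1.30 ± 0.25 (SE), adjusted p = 0.043). The calls for Pim1 and Srf were each lost in 19 of the 38 alternatives, and that for Map3k21 in 21. None of 20 tested immediate early genes passed, and 6 were higher and 4 lower in both pairs, against 30.7% and 28.3% of all tested genes.

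Other risen genes were Tmem51, a membrane protein gene, with 1504 and 1426 in the refed knockout and wild-type libraries, against 523 and 477 in their fasted counterparts (log2 difference 1.55 ± 0.28 (SE), adjusted p = 0.033), and Ankrd9, an ankyrin repeat gene, with 1706 and 1721 in the refed knockout and wild-type libraries, against 844 and 765 in their fasted counterparts (log2 difference 1.09 ± 0.19 (SE), adjusted p = 0.023). The remaining fallen genes had log2 differences between -2.14 and -0.84. Clec2e, a C-type lectin-like gene, had 1149 and 2076 in the refed knockout and wild-type libraries, against 3958 and 6881 in their fasted counterparts (log2 difference -1.76 ± 0.33 (SE), adjusted p = 0.036). B4galt6, which adds galactose to make lactosylceramide, had 1614 and 1801 in the refed knockout and wild-type libraries, against 3241 and 3483 in their fasted counterparts (log2 difference -0.98 ± 0.18 (SE), adjusted p = 0.033). Both were lower in both refed libraries than in both fasted ones. Tent5a, a poly(A) polymerase gene, had 837 and 882 in the refed knockout and wild-type libraries, against 1579 and 2281 in their fasted counterparts (log2 difference -1.14 ± 0.22 (SE), adjusted p = 0.043). Pde9a, a phosphodiesterase that degrades cyclic GMP, had 1542 and 1289 in the refed knockout and wild-type libraries, against 2642 and 2406 in their fasted counterparts (log2 difference -0.84 ± 0.16 (SE), adjusted p = 0.043). Btnl4, a butyrophilin-like gene, had 961 and 1080.1 in the refed knockout and wild-type libraries, against 1720.2 and 2143 in their fasted counterparts (log2 difference -0.91 ± 0.18 (SE), adjusted p = 0.043). The calls for Tent5a and Pde9a were each lost in 22 of the 38 alternatives, and that for Btnl4 in 18. Dqx1, a helicase-like gene, had 559 and 626 in the refed knockout and wild-type libraries, against 1114 and 1005 in their fasted counterparts (log2 difference -0.84 ± 0.15 (SE), adjusted p = 0.032), and the gene model Gm5431, named after its values were seen, had 127 and 67.5 in the refed knockout and wild-type libraries, against 535 and 319 in their fasted counterparts (log2 difference -2.14 ± 0.29 (SE), adjusted p = 0.0049). Of the 29 called genes named here, 7 share exonic bases with another annotated gene, 6 of them on the other strand, namely Chka, Bhlhe40, Ddx17, Tmem51, Pim1 and Pde9a.

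Growth-related lists had higher medians in the wild-type pair, a difference that was not tested for the lists. The knockout pair was also the pair nearly without Y-linked reads, and genotype and that state cannot be told apart. None of 30 tested ribosome biogenesis genes passed, although 23 were higher in both pairs and none was lower in both, against 30.7% and 28.3% of all tested genes. Their median log2 difference was 0.16 in the knockout pair and 1.09 in the wild-type pair. Polr1a, the large subunit of RNA polymerase I, had 143 and 153 in the refed knockout and wild-type libraries, against 54.4 and 56.3 in their fasted counterparts (log2 difference 1.40 ± 0.37 (SE), adjusted p = 0.17). Nop2, a ribosomal RNA methyltransferase, had 601 and 704 in the refed knockout and wild-type libraries, against 325 and 254 in their fasted counterparts (log2 difference 1.17 ± 0.33 (SE), adjusted p = 0.2). Of 25 tested S phase and G2/M genes none passed, 10 were higher in both pairs and none lower in both, with a median of -0.06 in the knockout pair and 1.90 in the wild-type pair. Mki67, the proliferation marker, had 373 and 681 in the refed knockout and wild-type libraries, against 433 and 114 in their fasted counterparts, named after its values were seen. It was lower after refeeding in the knockout pair and higher in the wild-type pair, with a knockout minus wild-type difference of -2.78 ± 0.83 (SE), adjusted p = 1. The same held for Olfm4, a crypt stem cell marker named after its values were seen, with 2089 and 5326 in the refed knockout and wild-type libraries, against 2337 and 1366 in their fasted counterparts and a difference of -2.12 ± 1.18 (SE), adjusted p = 1. For 36 ribosomal protein genes, of which none passed, the median was -0.20 in the knockout pair and 0.36 in the wild-type pair.

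No gene passed the test of a genotype difference in the response to 2 h of refeeding. Genotype coincided with the Y-linked state in these 4 libraries. The refed and fasted knockout libraries had 0 and 5 Y-linked reads, against 1462 and 1645 in wild type, so the 2 cannot be told apart here. The limma fit with this interaction called 0 of 11939 genes (0%), with 239 at an unadjusted p under 0.05 (2%), edgeR called 0 and DESeq2 called 1, Fmr1nb. In single pairs, 559 genes were at least 2-fold higher and 727 at least 2-fold lower in the knockout pair (4.68% and 6.09%). In the wild-type pair 1172 were at least 2-fold higher and 479 at least 2-fold lower (9.82% and 4.01%). Paneth cell markers summed to 24315 and 56154 normalized reads in the refed knockout and wild-type libraries, against 17444 and 9907 in the fasted knockout and wild-type libraries, and to 2861 to 31696 in the other 19. Crypt stem cell markers summed to 4269 and 8822 in the refed knockout and wild-type libraries, against 4441 and 2945 in the fasted knockout and wild-type libraries, and to 1038 to 4807 in the other 19. These sums moved with the growth-related values in the wild-type pair, and their part in them was not tested. In whole tissue, fewer cells of a type and less RNA per cell cannot be told apart.

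Markers of several cell types differed between these libraries without a call. Their counts stand beside 30.7% of all tested genes higher and 28.3% lower in both pairs. Of 11 tested Paneth cell markers, 10 were higher in both pairs, with a median log2 difference of 0.58 in the knockout pair and 2.69 in the wild-type pair. Lyz1, the Paneth cell lysozyme, had 7437 and 14958 in the refed knockout and wild-type libraries, against 3987 and 3133 in their fasted counterparts (log2 difference 1.58 ± 0.48 (SE), adjusted p = 0.26), and Mptx2, a Paneth cell pentraxin, had 584 and 493 in the refed knockout and wild-type libraries, against 146 and 43.4 in their fasted counterparts. Adipocyte markers had a median log2 difference of 5.46 over 10 tested genes, or 4.85 with the gene at 0 in both fasted libraries, Plin1, set to a floor of 3 reads per library. Cfd, an adipocyte complement factor, had 1144 and 487 in the refed knockout and wild-type libraries, against 17.8 and 0 in their fasted counterparts. Acinar markers had a median of -6.14 over 16 tested genes (-6.11 with Prss2 and Cuzd1 at that floor), with -9.17 in the knockout pair and -2.63 in the wild-type pair. Their summed level was 807 and 1131 in the refed knockout and wild-type libraries, against 88779 and 609 in the fasted knockout and wild-type libraries. Of the 16 acinar markers summed, 9 were at 0 in the refed wild-type library and 2 in the fasted one. The wild-type median thus rests on few reads, and the wild-type sum was higher after refeeding. Acta1, skeletal muscle actin, had 1258 and 807 in the refed knockout and wild-type libraries, against 50.6 and 116 in their fasted counterparts (log2 difference 3.70 ± 0.75 (SE), adjusted p = 0.058). Of 9 tested smooth muscle markers 8 were higher in both pairs, as were 6 of 8 fibroblast and stroma markers (median log2 difference 1.06), 4 of 6 mesothelial markers (median 0.78) and 7 of 11 goblet cell markers (median 0.27), and none of these lists held a call. Of 10 tested T cell markers none was higher and 8 were lower in both pairs. Enterocyte markers stayed near the median of all genes, with a median log2 difference of -0.08 over 16 genes, 3 higher and 7 lower in both pairs. Leaving out the libraries with pancreatic transcripts, which cut the fasted arm to 1 library, kept the calls of Hsp90aa1 and Hsph1 and added Fabp4. Leaving out those without Y-linked reads, which cut both arms to 1 library, kept Hsp90aa1 and Hsph1. All 29 called genes named here kept their direction in the first, with log2 differences at 54.7% to 124% of the full value. The second leaves only the wild-type pair. Direction could not change there, since all 30 called genes moved the same way in both pairs. Its log2 differences were at 59% to 129% of the full value. Srsf5 had the lowest share in both.

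**Figure D5:**
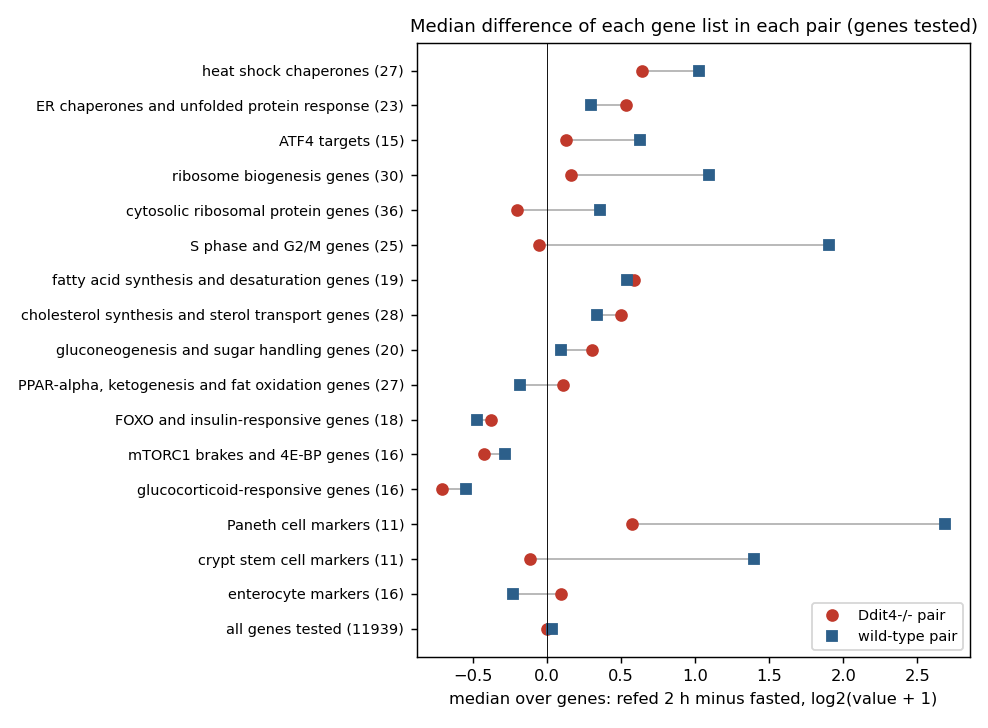
Median log2 difference, refed 2 h minus fasted, over the tested genes of selected pathway and cell type lists (number of genes in brackets), with the knockout pair as circles and the wild-type pair as squares. Heat shock chaperones are above 0 in both genotypes, glucocorticoid-responsive genes are below 0 in both, and S phase and G2/M genes lie at -0.06 in the knockout pair and 1.90 in the wild-type pair.

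Several other lists held no call. Their counts also stand beside 30.7% of all tested genes higher and 28.3% lower in both pairs. No member of the translation factor, amino acid transporter, autophagy and lysosome, proteasome, brush border, hypoxia or enteroendocrine lists passed the threshold. Autophagy and lysosome genes were lower in both pairs for 12 of 28 and higher for 4, while hypoxia-responsive genes were higher in both pairs for 9 of 17 and lower for 1. Vegfa, the endothelial growth factor of the hypoxia list, had 1109 and 1361 in the refed knockout and wild-type libraries, against 601 and 739 in their fasted counterparts (log2 difference 0.88 ± 0.28 (SE), adjusted p = 0.28). Of 19 tested amino acid and peptide transporters, 10 were higher and 4 lower in both pairs. Slc7a5, which imports large neutral amino acids, had 88.7 and 104 in the refed knockout and wild-type libraries, against 37.5 and 3.04 in their fasted counterparts (log2 difference 2.96 ± 0.88 (SE), adjusted p = 0.25).

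Ad libitum levels are given beside the refed ones as a description, since the genes were called on the same refed libraries. Hsph1 had 335 and 455 in the ad libitum knockout and wild-type libraries, close to its fasted levels, and Hspa1b had 53.1 and 175 in the ad libitum knockout and wild-type libraries. Chka had 1863 and 2021 in the ad libitum knockout and wild-type libraries and Bhlhe40 had 1500.3 and 2102 in the ad libitum knockout and wild-type libraries. Erbb3 had 10069 and 8495 in the ad libitum knockout and wild-type libraries, like the fasted libraries and above the refed ones. Pdk4 had 1314 and 912 in the ad libitum knockout and wild-type libraries, between the refed and the fasted levels. These are descriptions of 2 libraries per feeding state.

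Several chaperone genes were lower again at 6 h of refeeding. In the same fit, 430 genes were higher (3.6%) and 645 lower (5.4%) at 6 h than at 2 h, a comparison that shares the 2 h libraries with the first. The wild-type library refed for 6 h carried pancreatic transcripts, with a median acinar marker of 13577 normalized reads. That median was 0 in the wild-type library refed for 2 h. The knockout library refed for 6 h had 1190 Y-linked reads, against 0 in the knockout library refed for 2 h. The part of either in the differences between 6 h and 2 h was not tested. Of the 17 risen genes 9 were lower at 6 h than at 2 h and 8 did not pass. Of the 13 fallen genes 7 were higher and 6 did not pass. These genes were called on the same 2 h libraries, so a return toward the fasted level at 6 h was favoured in advance. For them the counts and p-values at 6 h against 2 h are descriptions and no independent support for a return. Hsph1 had 218 and 139 in the 6 h knockout and wild-type libraries, and its log2 difference of 6 h minus 2 h was -4.50 ± 0.37 (SE), adjusted p = 1.8e-05. Hspa1b had 103 and 38.4 in the 6 h knockout and wild-type libraries (-5.37 ± 0.78 (SE), adjusted p = 0.003). At 6 h Hsph1 lay below its fasted and ad libitum levels, and Hspa1b lay near its fasted levels. Hsp90ab1 had 6896 and 4972 in the 6 h knockout and wild-type libraries (-1.54 ± 0.25 (SE), adjusted p = 0.0048), and Hyou1 had 2339 and 1886 in the 6 h knockout and wild-type libraries (-0.95 ± 0.16 (SE), adjusted p = 0.005). Of the 27 heat shock genes 15 were lower at 6 h and none was higher, and of the 23 ER genes 8 were lower and none was higher. Some other called genes did not differ past the threshold between 6 h and 2 h. Bhlhe40 had 4918 and 4748 in the 6 h knockout and wild-type libraries and Chka had 4186 and 5851 in the 6 h knockout and wild-type libraries, in each gene above both fasted levels. Pdk4 was still low, with 391 and 413 in the 6 h knockout and wild-type libraries. Erbb3 had 5706 and 7564 in the 6 h knockout and wild-type libraries, higher than at 2 h (0.99 ± 0.26 (SE), adjusted p = 0.03). The count at 6 h against 2 h depended on the 2 h libraries: it was 32 without the wild-type library refed for 2 h and 166 without the knockout library refed for 2 h, against 1075 with all libraries.

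Mice refed for 2 h after doxorubicin gave a second pair at the same time after the fast, though with the drug. Of that pair, the wild-type library carries a title that says untreated and a drug label that says doxorubicin, and the drug label was followed. Hsph1 had 855 and 552 normalized reads in the doxorubicin-treated knockout and wild-type libraries, against 2966 and 5269 in the untreated knockout and wild-type libraries refed for 2 h. Hspa1b had 306 and 355 with the drug in knockout and wild type, against 1659 and 4236 without it. Both genes were thus lower with the drug than without it at 2 h of refeeding, and still above the fasted levels. Bhlhe40 had 4628 and 8342 with the drug in knockout and wild type, against 6696 and 6293 without it, and Chka had 4790.4 and 6589 with the drug in knockout and wild type, against 8434 and 7066 without it. Pdk4 had 443 and 1189 with the drug in knockout and wild type, against 584 and 531 without it, all far below its fasted levels. These values are given side by side, and the drug effect was not tested.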

How the data were processed

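Whole proximal small intestine was profiled by poly(A)-selected, non-directional RNA-seq with paired reads of 150 bases, per the labels' protocols. Tools named in the submitters' processing notes are Trim Galore, STAR and DESeq2, with the build mm10. The counting tool, annotation and gene filter are not given in the sources used here. The deposited signal is read counts divided by 1 size factor per library, as the values themselves show: 1 read was worth 0.705 to 1.67, and 100% of values were within 0.01 of whole reads. The table held 16259 genes in 23 libraries (12 wild type, 11 knockout).

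Log2(value + 1) was fitted in R 4.3.3 with limma 3.58.1 (eBayes with trend), with 12 conditions and genotype as terms, over 11939 genes with a mean of at least 10. P-values were two-sided and adjusted by Benjamini-Hochberg over all genes tested, with a threshold of 0.05. Fold changes are on the log2(value + 1) scale, which understates changes of low genes. A second fit added the genotype difference. edgeR 4.0.16 and DESeq2 1.42.0 were run on the recovered counts as alternatives. The main limma fits use the doxorubicin libraries only for the spread. Where a single compared library was left out, the genotype effect from the other libraries, doxorubicin ones included, also entered the log2 difference.

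Named genes were Ddit4, up to 15 largest called rises and falls with a mean of at least 50 and the same direction in both pairs, the 10 largest uncalled rises and falls in both pairs, and up to 4 genes per list; other genes are marked where named. The values of 1 gene that rose are not reported here. Members and the 40 gene lists were chosen with earlier results of these data known. Libraries carry no replicate numbers, and pairs were formed by genotype. Gene positions come from the GRCm38 annotation.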

Additional observations from a re-analysis of the deposited data

Results flagged for a closer look

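In 4 gene lists the median log2 difference, refed 2 h minus fasted, had opposite signs in the knockout and wild-type pairs with a wide gap. These gaps were not tested, and no single gene passed the test of a genotype difference. The knockout pair also lacked nearly all Y-linked reads, which cannot be told apart from genotype here. S phase and G2/M genes had a median of -0.06 in the knockout pair and 1.90 in the wild-type pair over 25 genes, a gap of -1.96. Crypt stem cell markers had -0.11 and 1.40 in the knockout and wild-type pairs over 11 genes, a gap of -1.51. B and plasma cell markers had -4.78 and 1.0 in the knockout and wild-type pairs over 6 genes, a gap of -5.78. Their sums over 12 listed genes were 514 and 328 normalized reads in the refed knockout and wild-type libraries, against 2410 and 224 in their fasted counterparts. The high sum was that of the fasted knockout library, which also carried pancreatic transcripts. Of the 12 genes, 8 were at 0 in the fasted wild-type library and 4 in the refed wild-type library. Erythrocyte markers had -0.98 and 0.72 in the knockout and wild-type pairs over 4 genes, a gap of -1.70. Their sums over 6 listed genes were 125 and 233 normalized reads in the refed knockout and wild-type libraries, against 178 and 226 in their fasted counterparts. The wild-type sums nearly coincided, and the wild-type median rests on Hbb-bt and Alas2, which had few reads.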

How the results depend on the processing

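The count of 30 genes at 2 h against fasting was 16 without a filter on low values, 57 after quantile normalization, 19 with edgeR, 146 with DESeq2 and 103 with array weights. It was 18 without the genotype term, 17 with untreated libraries only, 187 with the 4 compared libraries only and 57 without the 4 libraries whose titles conflict with their drug labels. Dropping the libraries that lack Y-linked reads left 2, and there were 3 without those with pancreatic transcripts. Leaving out 1 library at a time gave 3 to 38. For the genotype difference, 0 genes became 1 with DESeq2 (Fmr1nb), and leaving out 1 library gave 0 to 1. The 1075 genes at 6 h against 2 h became 1634 with DESeq2, 259 with array weights, 459 with untreated libraries only, and 32 to 1257 leaving out 1 library. The 343 genes that differed 2-fold in both pairs became 822 without a filter, 151 with a mean of at least 50, 994 at 1.5-fold and 103 at 3-fold. The cause of these changes was not tested. The log2 difference of Ddit4 was 0.073 when libraries that lack Y-linked reads were dropped, against -0.73. Over 92 named genes and 3490 values under alternatives, 3012 kept their direction and side of the threshold, 337 lost the call, 140 gained one and 1 reversed. In the 4 compared libraries 1 read was worth 0.761 to 0.937 normalized reads, so values near a few reads carry large counting error. The genotype term pairs the libraries, both in the full fit and in the fit of the 4 libraries only.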
